A study of Mus musculus with 16 samples.

Results

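The BCL2 family sets whether a cell survives by controlling the mitochondrial outer membrane. Pro-survival members (BCL2, BCL-XL encoded by Bcl2l1, MCL1 and BCL2A1) bind and hold back the effectors BAX and BAK, which otherwise form pores that release cytochrome c and start the caspase cascade. The BH3-only members (BIM encoded by Bcl2l11, BID, PUMA encoded by Bbc3 and NOXA encoded by Pmaip1) respond to cytokine withdrawal, death receptors or DNA damage and either occupy the pro-survival proteins or activate the effectors directly. Blood progenitors depend on this balance, MCL1 and BCL2 being known survival factors of hematopoietic and dendritic cell lineages.

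Expression of 10 genes was followed: the pro-survival Bcl2, Bcl2l1, Mcl1 and Bcl2a1b, the effectors Bax and Bak1, and the BH3-only Bcl2l11, Bid, Bbc3 and Pmaip1. Members were the noncontrol probes whose gene name in the array files equals one of these symbols. These were 12 probes for 9 genes, out of 39429 noncontrol probes for 23398 gene symbols, and no probe carried the name Bcl2a1b. All 12 passed the filter on dim probes, among 27433 probes tested. Bcl2l1, Mcl1 and Bcl2l11 had 2 probes each, numbered by mean signal.

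RNA came from macrophage-dendritic cell progenitors (MDPs) and their progeny, common dendritic cell progenitors (CDPs), sorted from lineage-depleted bone marrow (BM) of female C57/Bl6 mice. Tumor-bearing mice carried orthotopic mammary tumors of the PyMT-B6 line, itself derived from MMTV-PyMT mice on this background, grown to 1.5 cm, and tumor-free controls were age-matched. The 4 groups were MDPs and CDPs from tumor-free mice (labelled Normal) and from tumor-bearing mice (labelled PyMT), with 4 samples in each, numbered 2 to 5, every sample holding RNA from 2 mice. Each sample was hybridized to a single-color (Cy5) Agilent mouse array, and the comparisons address how a tumor alters progenitor expression and how CDPs differ from MDPs. Between 58.8% and 71.5% of probes were well above background on an array, and the median of this share by slide ran from 62.1% to 71.3%. The 4 slides each held 4 arrays, but slide 1 held no CDP of tumor-bearing mice and slide 4 no MDP of tumor-bearing mice, so values with slide as a block stand beside the results they alter. All 8 identity genes of these progenitors (Flt3, Csf1r, Kit, Cx3cr1, Irf8, Csf2rb, Csf2ra and Ptprc) were detected. Kit, the stem cell factor receptor, which is lower on CDPs than on MDPs, was lower in CDPs by limma in tumor-free mice (log2 difference -2.59, adjusted p = 3.59e-06) and in tumor-bearing mice (-3.81, adjusted p = 1.06e-07). Most of the 8 went the other way: 7 were on the higher side in CDPs and 1 on the lower in tumor-free mice (median 0.49). In tumor-bearing mice these were 6 and 2 (median 0.41). By the calling rule given below, Csf2ra was called higher in CDPs in both states (0.79 and 1.06).

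Signals are given as log2 processed signal minus the 75th percentile of the array, so a value of 0 is the brightness of the 75th percentile probe. Levels are compared between samples for a probe, never between probes. A probe was called when its Benjamini-Hochberg adjusted p over all tested probes was under 0.05 and its fold change above 1.5.

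The array reads each gene through a 60-base probe, and the probes that lie in coding sequence are shown because they state which stretch of the transcript was measured. The Bcl2 probe covers the end of the BH1 domain and the codons after it, a stretch of the groove that holds BH3 peptides, and lies at chr1:108608970-108609029 on the minus strand (mm9). Bcl2l1 probe 2, at chr2:152655185-152655244 on the minus strand, lies in coding sequence downstream of BH1, and Bcl2l11 probe 1, which the files do not place on a chromosome, starts inside the BH3 domain of BIM.
Bcl2: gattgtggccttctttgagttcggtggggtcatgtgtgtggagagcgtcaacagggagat
Bcl2l1 probe 2: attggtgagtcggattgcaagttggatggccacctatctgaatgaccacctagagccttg
Bcl2l11 probe 1: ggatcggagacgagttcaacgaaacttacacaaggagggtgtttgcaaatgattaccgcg
Their GC content was 53.3%, 50% and 48.3%.

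Bcl2 was the only member whose level changed with the tumor by the test. In tumor-free CDPs its signals were 2.73, 2.82, 2.39 and 2.61, and in CDPs of tumor-bearing mice they were 1.79, 1.45, 1.38 and 1.91. Every tumor-bearing sample lay below every tumor-free one. The mean fell by 1.0 on the log2 scale (SE 0.18, 95% confidence interval -1.39 to -0.62), which is 2-fold lower, with an adjusted p of 0.0133. The exact two-sided permutation p was 0.0286, the smallest that 4 against 4 samples can give. With slide as a block the change was -1.07 and the adjusted p 0.00369, and within the 3 slides that hold both groups it was -1.01, -0.82 and -1.19.

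The Bcl2 call in CDPs was held in 6 of the 8 fits that leave out a CDP array. It was lost without replicate 3 of the tumor-bearing CDPs (adjusted p = 0.0516) or without replicate 4 (adjusted p = 0.0519), with changes of -0.94 and -0.92. A fit on the CDP arrays alone also lost it (adjusted p = 0.0782).

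In MDPs Bcl2 ran the same way without passing the test. Its signals were 3.0, 2.61, 2.87 and 2.92 in tumor-free MDPs and 2.20, 2.10, 1.84 and 2.55 in MDPs of tumor-bearing mice. Here too the groups did not overlap, the highest tumor-bearing sample at 2.55 lying just under the lowest tumor-free one at 2.61. The difference was -0.68 (SE 0.18, 95% confidence interval -1.06 to -0.30, 1.6-fold) with an adjusted p of 0.245, and -0.62 with an adjusted p of 0.107 under the slide block. The tumor changes of the 2 progenitors were not shown to differ: their difference was -0.32 (95% confidence interval -0.86 to 0.22, adjusted p = 0.748).

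By mean level Bcl2 was highest in tumor-free MDPs (2.85 ± 0.17, SD, n = 4), followed by tumor-free CDPs (2.64 ± 0.18), MDPs of tumor-bearing mice (2.17 ± 0.29) and CDPs of tumor-bearing mice (1.63 ± 0.25). Each neighboring pair in this order overlapped in range. The step from MDPs to CDPs was -0.21 in tumor-free mice (adjusted p = 0.711) and -0.54 in tumor-bearing mice (adjusted p = 0.0821), the latter called with slide as a block (-0.66, adjusted p = 0.0297).

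**Figure D1:**
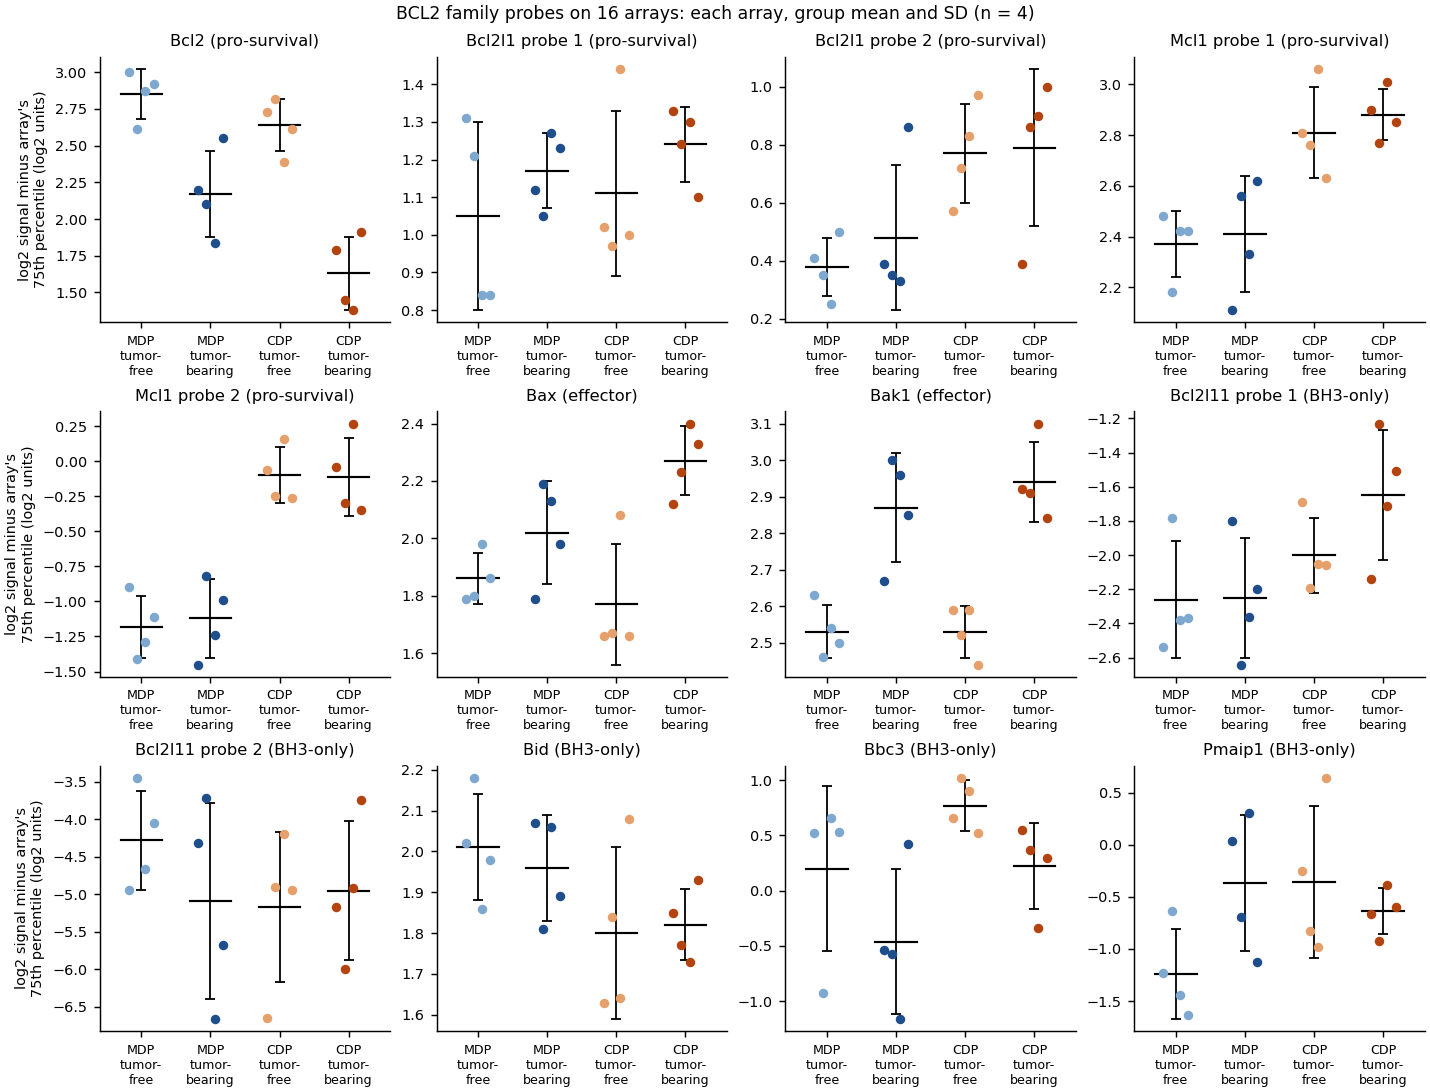
Normalized log2 signal (log2 units, relative to the array's 75th percentile) of the 12 BCL2 family probes on each of the 16 arrays, in tumor-free and tumor-bearing MDPs and CDPs; points are arrays, horizontal lines group means and bars SD (n = 4), and each panel has its own axis. Bcl2 in CDPs of tumor-bearing mice lies between 1.38 and 1.91, below all tumor-free CDPs, while Mcl1 probe 2 separates CDPs from MDPs in both tumor states.

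Among the 12 member probes, 1 was called between tumor-bearing and tumor-free CDPs, against 1.8% of all tested probes. An unadjusted p under 0.05 was reached there by 3 (Bcl2, Bax and Bak1; 13.7% of all probes). In MDPs 0 members were called by limma, against 0.0656% of all probes, and 3 had an unadjusted p under 0.05 (Bcl2, Bak1 and Pmaip1; 10.4% of all probes). For the difference of the tumor changes 0 members were called, against 0.0146%, with 1 (Pmaip1) under an unadjusted p of 0.05 (4.03% of all probes). Groups did not overlap for 3 of 12 member probes in CDPs (Bcl2 lower, Bax and Bak1 higher), against 11.1% of all probes, and for 2 in MDPs (Bcl2 lower, Bak1 higher), against 5.21%. The median tumor change of the members was 0.05 in CDPs and 0.04 in MDPs, beside 0.08 and -0.12 over all probes.

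The other pro-survival members measured had tumor changes near 0. Mcl1, whose short-lived protein restrains BAK, had changes of 0.07 (probe 1) and 0.00 (probe 2) in CDPs and of 0.03 and 0.06 in MDPs. The 95% confidence intervals of these changes reached no further than -0.40 and 0.46. Bcl2l1 gave 0.13 and 0.02 for its probes in CDPs and 0.12 and 0.11 in MDPs, with adjusted p from 0.741 to 0.977. Of the 3 pro-survival genes measured, Bcl2 alone passed the test, in CDPs.

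Both effectors were brighter in CDPs of tumor-bearing mice, without passing the test. Bax signals were 1.66, 1.67, 2.08 and 1.66 in tumor-free CDPs and 2.12, 2.23, 2.40 and 2.33 in tumor-bearing ones. The samples did not overlap, although tumor-free replicate 4 at 2.08 came close to the lowest tumor-bearing sample. The difference was 0.50 (SE 0.14, 95% confidence interval 0.20 to 0.81) with an adjusted p of 0.0928, and 0.49 with an adjusted p of 0.0366 under the slide block, at a fold below the threshold of 1.5. In MDPs Bax differed by 0.16 (adjusted p = 0.646) with overlapping samples, 1.79 to 1.98 against 1.79 to 2.19.

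Bak1 did not pass the test in either progenitor, and its mean was higher with the tumor in both. Its signals were 2.59, 2.52, 2.59 and 2.44 in tumor-free CDPs and 2.92, 2.91, 3.10 and 2.84 in tumor-bearing ones, a difference of 0.41 (SE 0.12, adjusted p = 0.101; 0.39 and adjusted p = 0.0281 under the slide block). In MDPs they were 2.63, 2.46, 2.54 and 2.50 against 2.67, 3.0, 2.96 and 2.85, a difference of 0.34 (SE 0.12, adjusted p = 0.375). The samples did not overlap in either progenitor, although in MDPs tumor-bearing replicate 2 at 2.67 lay next to tumor-free replicate 2 at 2.63. The deposited quantile-normalized table gave 0.25 for Bak1 in CDPs (adjusted p = 0.377) and 0.40 for Bax (adjusted p = 0.179).

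**Figure D2:**
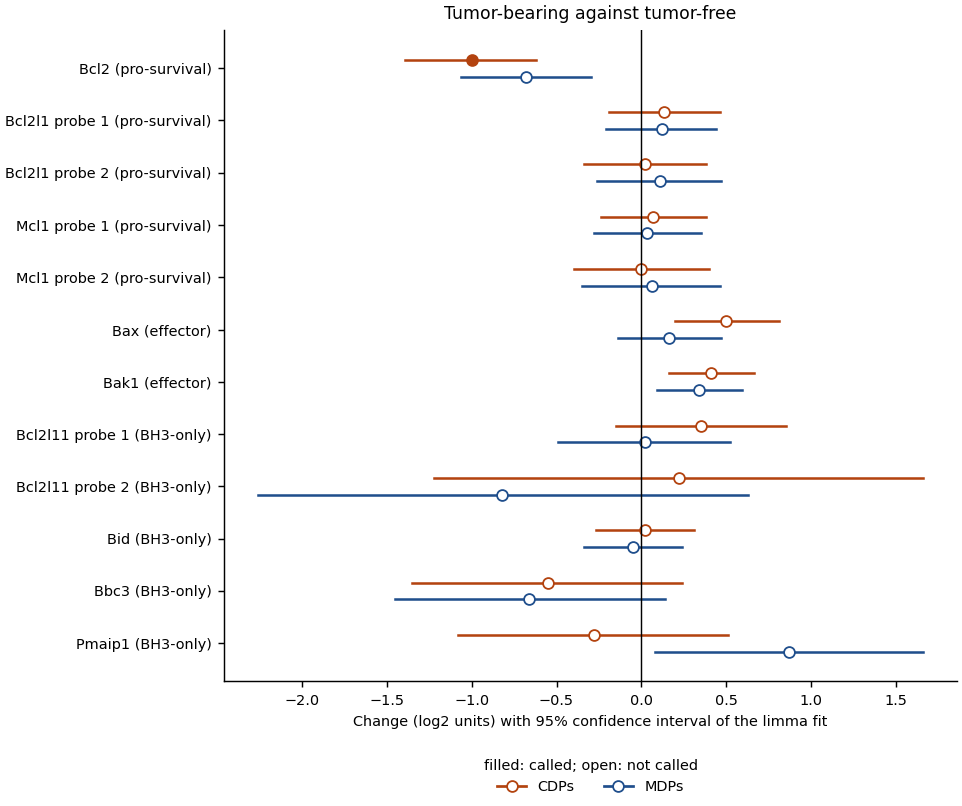
Tumor-bearing minus tumor-free change (log2 units, horizontal axis) of each BCL2 family probe in CDPs and in MDPs, with 95% confidence intervals of the limma fit over 16 arrays; filled points are called and open points are not. Bcl2 in CDPs (-1.0) is the only filled point, and Bax and Bak1 lie to the right of 0 in CDPs at 0.50 and 0.41.

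Because the tumor differences of Bcl2 and of the effectors had opposite signs, their log2 signals were subtracted on the same array, a value that scaling a whole array by a factor cannot alter. These pairs were chosen after the values were seen and are given as descriptions with no test. The size of such a difference also depends on the 2 probes, so only its shift between groups can be read. In CDPs, Bcl2 minus Bax went from a mean of 0.87 ± 0.38 (SD, n = 4, range 0.31 to 1.15) in tumor-free to -0.64 ± 0.32 (range -1.02 to -0.33) in tumor-bearing mice, a shift of -1.51. Bcl2 minus Bak1 shifted by -1.42 in CDPs and by -1.02 in MDPs, and Bcl2 minus Bax by -0.85 in MDPs. Against Mcl1 probe 1 the shifts of Bcl2 were -1.07 in CDPs and -0.72 in MDPs. For all 3 pairs the tumor-bearing samples lay below the tumor-free samples of the same progenitor, as they did for Bcl2 alone. For Bak1 in both progenitors and Bax in CDPs this order was fixed by the single genes, which did not overlap in opposite directions. It is therefore no further result.

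**Figure D3:**
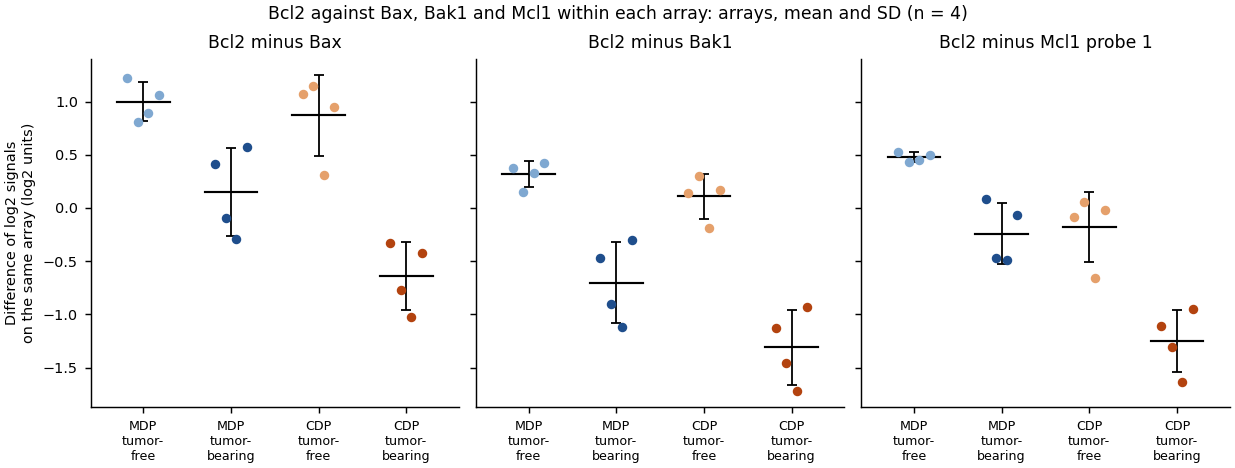
Difference of the log2 signals (log2 units) of Bcl2 and of Bax, Bak1 or Mcl1 probe 1 on the same array, for the 4 groups; points are arrays, lines means and bars SD (n = 4). Bcl2 minus Bak1 has a mean of 0.11 in tumor-free and -1.31 in tumor-bearing CDPs, and of 0.32 and -0.70 in the corresponding MDPs.

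None of the BH3-only genes passed the test for a tumor change. Pmaip1 (NOXA, which binds MCL1) gave -1.23, -0.64, -1.44 and -1.63 in tumor-free MDPs and 0.04, -0.69, 0.30 and -1.12 in tumor-bearing ones, overlapping groups with a difference of 0.87 (SE 0.37, adjusted p = 0.459). In CDPs its signals were -0.25, -0.83, -0.98 and 0.64 against -0.66, -0.92, -0.39 and -0.60, a difference of -0.28 (adjusted p = 0.811). The difference of the tumor changes, -1.15 (95% confidence interval -2.28 to -0.03), had an adjusted p of 0.748 and was -0.55 under the slide block.

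Bbc3 (PUMA, a p53 target) was on average dimmer with the tumor in both progenitors. Its signals were 0.66, 1.02, 0.90 and 0.52 in tumor-free CDPs and 0.55, 0.37, -0.34 and 0.30 in tumor-bearing ones, a difference of -0.55 (SE 0.37, adjusted p = 0.596; -0.83 and adjusted p = 0.0773 under the slide block). In MDPs they were 0.52, -0.93, 0.66 and 0.53 against -0.54, -0.57, -1.16 and 0.42, a difference of -0.66 (adjusted p = 0.543), which was -0.38 under the slide block (adjusted p = 0.437) and -1.03 without tumor-free replicate 3. The groups overlapped in both progenitors.

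Bcl2l11 (BIM, which sets death on cytokine withdrawal in myeloid and lymphoid cells) had tumor changes of 0.35 in CDPs (95% confidence interval -0.15 to 0.85, adjusted p = 0.596) and 0.02 in MDPs by probe 1. Its probe 2 was near background, well above it on 3, 2, 3 and 1 of 4 arrays in tumor-free MDPs, tumor-bearing MDPs, tumor-free CDPs and tumor-bearing CDPs, and is not read further. Bid, the substrate of caspase 8, was level: 0.02 in CDPs and -0.05 in MDPs, with all 16 signals between 1.63 and 2.18.

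Between the progenitors, Mcl1 was the member that differed. Probe 2 (chr3:95465543-95465602, plus strand, mm9) gave -0.90, -1.41, -1.29 and -1.11 in tumor-free MDPs and -0.06, -0.25, 0.16 and -0.26 in tumor-free CDPs. In tumor-bearing mice it gave -1.45, -0.82, -1.24 and -0.99 in MDPs and -0.04, -0.30, 0.27 and -0.35 in CDPs. All 8 CDP samples lay above all 8 MDP samples. CDPs were higher by 1.08 in tumor-free mice (SE 0.19, 2.11-fold, adjusted p = 0.00311) and by 1.02 in tumor-bearing mice (SE 0.19, 2.02-fold, adjusted p = 0.00469).

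Mcl1 probe 1 (chr3:95466855-95466914, plus strand), the brighter and further downstream, had the same direction at less size. It read 2.48, 2.18, 2.42 and 2.42 in tumor-free MDPs against 2.81, 2.76, 3.06 and 2.63 in tumor-free CDPs, and 2.11, 2.56, 2.33 and 2.62 against 2.90, 2.77, 3.01 and 2.85 in tumor-bearing mice. All CDP samples again lay above all MDP samples of the same tumor state. The differences were 0.44 (SE 0.15, adjusted p = 0.0999) and 0.48 (SE 0.15, adjusted p = 0.062), neither called. With slide as a block they were 0.44 (adjusted p = 0.0064) and 0.37 (adjusted p = 0.0484), at folds below the threshold of 1.5. Mcl1 was thus called between progenitors by its dimmer probe, and by the mean of both probes (0.76, adjusted p = 0.0116, and 0.75, adjusted p = 0.0125), but not by its brighter probe. Whether the probes read different 3' ends of the transcript was not tested.

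**Figure D4:**
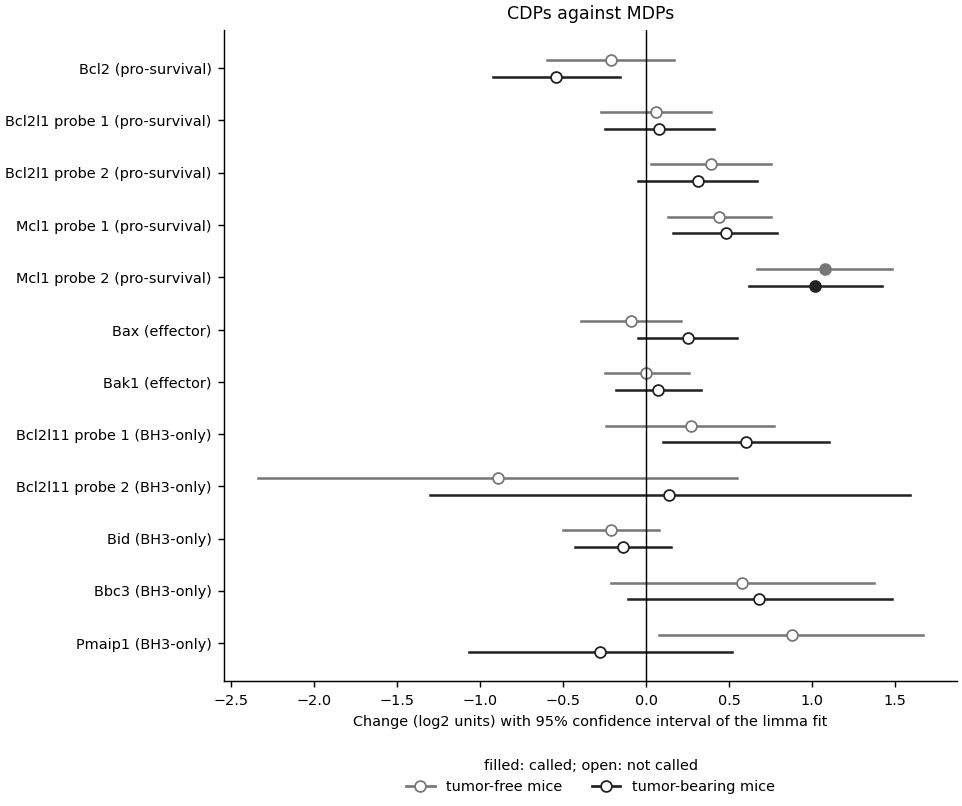
CDP minus MDP difference (log2 units, horizontal axis) of each BCL2 family probe without and with a tumor, with 95% confidence intervals of the limma fit over 16 arrays; filled points are called and open points are not. Mcl1 probe 2 is called in both, at 1.08 and 1.02, while probe 1 lies at 0.44 and 0.48.

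In each tumor state 1 of the 12 member probes was called between CDPs and MDPs, against 6.1% of all probes without and 7.26% with a tumor, so the count of members is near the background. An unadjusted p under 0.05 was reached by 4 of the 12 in each state, beside 17.1% and 27.8% of all probes. Groups did not overlap for 3 probes in tumor-free mice (both of Mcl1 and Bcl2l1 probe 2, all higher in CDPs; 13.3% of all probes) and for 2 in tumor-bearing mice (both of Mcl1; 14.1%). Bcl2l1 probe 2 was at 0.41, 0.35, 0.25 and 0.50 in tumor-free MDPs and 0.57, 0.72, 0.83 and 0.97 in tumor-free CDPs, a difference of 0.39 (adjusted p = 0.234), while probe 1 differed by 0.06. Pmaip1 was higher in tumor-free CDPs than MDPs by 0.88 (adjusted p = 0.225), overlapping in range but called with slide as a block (adjusted p = 0.00874). Bcl2l11 probe 1 was higher in CDPs by 0.60 in tumor-bearing mice (adjusted p = 0.13). Bax and Bak1 differed between the progenitors by at most 0.25, with adjusted p of 0.233 or more.

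By role, the brightest probe of each member gave in CDPs a tumor change of -1.0 to 0.13 for the 3 pro-survival genes, 0.41 to 0.50 for the 2 effectors and -0.55 to 0.35 for the 4 BH3-only genes. In MDPs the ranges were -0.68 to 0.12, 0.16 to 0.34 and -0.66 to 0.87. The widest spread of group means belonged to Bbc3 (1.24), Bcl2 (1.22) and Pmaip1 (0.88), and the narrowest to Bid (0.21) and Bcl2l1 (0.19).

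Of 63 other genes of the death pathway in 5 lists (other BCL2 relatives, apoptosome and caspases, inhibitors of apoptosis, death receptors, p53 pathway), 55 were tested. In CDPs 1 was called higher with the tumor and 0 lower, against 1.8% of all probes called. It was Cdkn1a, the p53-induced cell cycle inhibitor p21, which rose by 1.01 (SE 0.22, adjusted p = 0.0337). In MDPs 0 of 55 were called by limma, against 0.0656% of all probes. An unadjusted p under 0.05 was reached by 11 of the 55 in CDPs and by 7 in MDPs, beside 13.7% and 10.4% of all probes. The median tumor change of the 55 was 0.13 in CDPs and 0.05 in MDPs. Among 10 tested BCL2 relatives outside the members, 0 were called in any of the 5 comparisons. An unadjusted p under 0.05 was reached by 0 for the tumor change in CDPs and by 3 in MDPs, beside 13.7% and 10.4% of all probes. It was reached by 3 for their difference (4.03% of all probes). For the progenitor step it was reached by 2 in tumor-free mice (17.1%) and by 2 in tumor-bearing mice (27.8%).

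Between the progenitors, 14 of the 55 had an unadjusted p under 0.05 without a tumor and 19 with one, beside 17.1% and 27.8% of all probes. Called were 1 higher and 2 lower without a tumor, beside 6.1% of all probes, and 3 higher and 3 lower with one, beside 7.26%. In tumor-free mice Casp6, an executioner caspase, was higher in CDPs by 0.83 (adjusted p = 0.00493), and Aen, a p53-induced nuclease, was lower (-0.82, adjusted p = 0.00846). Tnfsf10, the death ligand TRAIL, was lower in CDPs (adjusted p = 0.0296), with a difference of -3.56 (SE 0.91) whose size is uncertain because the probe was well above background on 1 of 4 CDP arrays, against all 4 MDP arrays. In tumor-bearing mice the calls were 3 higher (Casp6 1.03, Birc3 0.91, Cdkn1a 1.43) and 3 lower (Diablo -0.93, Endog -1.22, Tnfsf10). With slide as a block Endog (-1.15, adjusted p = 0.066) and Tnfsf10 (-2.27, adjusted p = 0.051) were no longer called. In tumor-free mice the block added Endog, lower in CDPs (-1.03, adjusted p = 0.0375, against 0.0636 without it). It also added Naip6 of the inhibitors list, higher in CDPs (0.93, adjusted p = 0.0278, against 0.0583). Birc3 encodes the inhibitor cIAP2, Diablo the mitochondrial antagonist of such inhibitors, and Endog a mitochondrial nuclease. Tnfsf10 was not well above background on any tumor-bearing CDP array and was at least 4.6-fold lower there than in MDPs (adjusted p = 0.019).

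Some markers of other cells changed with the tumor, and in sorted bulk samples fewer cells of a type and less RNA per cell cannot be told apart. The mean of 9 tested NK and T cell markers ran from -2.59 to -2.23 in tumor-free CDPs and from -3.52 to -2.63 in tumor-bearing ones, and from -2.91 to -2.50 and -3.75 to -2.59 in the MDPs. In CDPs 5 of these 9 markers were on the higher side with the tumor and 4 on the lower (median 0.14), and in MDPs 1 and 8 (median -0.65). Those called were Klrd1 and Cd96, lower in tumor-bearing CDPs (-4.57 and -3.90, each well above background on 1 of 4 tumor-bearing arrays). Gzmb, listed with them but too dim to be tested, was not above background on any array. The mean of 10 neutrophil markers ran from -2.23 to -0.54 and from -0.99 to -0.50 in CDPs, and from -2.99 to -1.32 and -2.05 to -0.80 in MDPs, with 6 of the 10 on the higher side in CDPs (median 0.75) and 5 in MDPs (median 0.43). Lcn2 was called in both (2.70 and 2.16) and Mmp8 in CDPs (1.87). Erythroid markers had a median change of -0.96 in CDPs and -0.76 in MDPs over 9 genes, 0 of them called by limma. In each progenitor 5 of the 9 had an unadjusted p under 0.05, beside 13.7% and 10.4% of all probes. Their means ran from -3.56 to -1.90 and -3.85 to -3.11 in CDPs, and from -2.33 to -1.44 and -2.63 to -2.24 in MDPs. Median changes in CDPs and MDPs were -0.02 and -0.10 for B cell markers and -0.06 and -0.15 for plasmacytoid dendritic cell markers. They were 0.61 and 0.30 for mast cell and basophil, -0.54 and -0.82 for megakaryocyte and 0.20 and -0.45 for mammary tumor markers. Only Bst2, a plasmacytoid dendritic cell marker, was called among these lists, lower in tumor-bearing CDPs (-0.69). Kit was lower in CDPs of tumor-bearing mice (-1.34, adjusted p = 0.00427). The part of these cells in the Bcl2, Bax and Bak1 values was not tested.

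The 3 genes nearest in pattern to Bbc3, the member with the widest spread, over the 16 arrays (root mean square difference after centering each gene) were Sparc (0.247), Ppfia4 (0.276) and Stoml1 (0.281). For Bcl2 they were B4galt4 (0.212), Ptprs (0.221) and Tesk1 (0.225). In B4galt4 the tumor change was -1.19 in CDPs and -0.46 in MDPs, beside -1.0 and -0.68 in Bcl2.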

How the data were processed

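The authors deposited Agilent Feature Extraction 11.5.1.1 spot tables holding processed spot intensity (background-subtracted, not scaled between arrays) and a table of log2 values for 26793 probes, found to be quantile-normalized log2 intensity and used as an alternative. Probe positions are those of the files (mm9). Symbols and probe sequences are those of the files. From these, the 75th percentile of the array was subtracted from log2 intensity, and spots of a probe were averaged without outlier spots (182 to 289 per array, 0 saturated). To be fitted, a probe had to be well above background on 3 or more arrays of a group. The fit used limma 3.58.1 (R 4.3.3; data.table, version 1.17.8) with 4 group means over 16 arrays, was checked on simulated data, and gave 95% intervals. Calls needed an FDR under 0.05 and a fold above 1.5. The 75th percentile intensity ran from 3618 to 4654, and the number of arrays limits precision. A gene was given by its brightest tested probe, with other probes beside it for members only. Names in the text are all members, other listed pathway genes if called, markers called for a tumor change and nearest patterns. Naip6 (called only with slide as a block), Gzmb and the identity genes are named beyond this rule. The nearest patterns were set by rule for the member with the widest spread, and those of Bcl2 were added. A bound ("at least") sets the brighter group against the lowest signal well above background. Members and lists were chosen with earlier results of these data known. The design text names 4 independent experiments, but no label ties a sample number to one, so p-values measure spread between these samples. Alternatives were other background corrections, scalings, filters, blocks, thresholds and tests, and leaving out each array.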

Additional observations from a re-analysis of the deposited data

Results flagged for a closer look

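In 48 groups of 4 arrays (12 probes in 4 groups), 4 arrays stood apart from the other 3 of their group by more than Dixon's limit. By chance alone such a limit flags some groups, about 5% of them. Bax read 2.08 in tumor-free CDP replicate 4, against 1.66 to 1.67 in the others. On the same array Bcl2l1 probe 1 read 1.44, against 0.97 to 1.02. Bbc3 read -0.93 in tumor-free MDP replicate 3, against 0.52 to 0.66. Bcl2l1 probe 2 read 0.86 in tumor-bearing MDP replicate 5, against 0.33 to 0.39. Without the array concerned the Bax change in CDPs was 0.61 (adjusted p = 0.0543).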

How the results depend on the processing

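The number of arrays and dim signal (Bcl2l11 probe 2) limit these results. Calls over all tested probes ran with the settings from 3 to 2081 for the tumor change in CDPs (494 in the report's fit, 1248 with slide as a block), 1 to 1026 in MDPs (18, and 44), 0 to 8 for their difference (4, and 2), and 1117 to 2993 (1673, and 2925) and 608 to 4127 (1993, and 1732) for the progenitor step without and with a tumor (lowest by the methods' t-test after Benjamini-Hochberg adjustment, or by normexp or leaving out an array; highest by that t-test unadjusted or, for the difference, by an FDR under 0.10). Quantile normalization moved the median change of all probes in MDPs from -0.12 to 0.00 and of the tumor-bearing step from 0.19 to 0.00.

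The number of members called for the tumor change in CDPs was 0 with only the groups compared in the fit and 0 by the methods' t-test after adjustment, and 0 to 1 when an array was left out. In MDPs it was 1 (Bcl2) by the unadjusted t-test. The progenitor step had 2 members called with slide as a block in tumor-free mice (Mcl1 probe 2, Pmaip1) and 2 in tumor-bearing mice (Mcl1 probe 2, Bcl2), and 0 in tumor-bearing mice by the adjusted t-test (Mcl1 probe 2 at 1.02, adjusted p = 0.0636). The causes were not tested.

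Deviations of same-numbered tumor-free and tumor-bearing samples correlated over 0.1 in 3 of 4 pairs for CDPs (0.0214 to 0.481) and in 1 of 4 for MDPs (-0.557 to 0.44). Between same-numbered MDPs and CDPs this held for 0 of 4 pairs without a tumor and 3 of 4 with one. Only some pairs share a slide, so these values cannot tell pairing from slide. The numbers were not taken as pairs because no label ties them to an experiment. With the replicate block Bcl2 in CDPs kept its call (-1.0, adjusted p = 0.0139), and the calls over all probes were 371 in CDPs and 10 in MDPs.

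The changes that turned sign were uncalled in every setting that turned them. For the tumor change in CDPs these were Bid (-0.08) and Mcl1 probe 1 (-0.10, and -0.09) under quantile normalization and the deposited table, and Pmaip1 (0.02) under the slide block. For the tumor change in MDPs they were Mcl1 probe 1 (-0.04 under both), and Bcl2l11 probe 1 under normexp (-0.05), the slide block (-0.08) and the mean of its probes (-0.40). For the difference of the changes they were Bak1 (-0.03), Bbc3 (-0.01), Bcl2l1 (-0.05) and Mcl1 probe 1 (-0.06) under normexp, Bak1 (-0.03) and Mcl1 probe 1 (-0.06, and -0.05) under quantile normalization and the deposited table, Bbc3 (-0.45) and Mcl1 probe 1 (-0.07) under the slide block, and Bcl2l1 (-0.03) and Mcl1 (-0.01) by the mean of probes. For the progenitor step they were Bid (0.02, normexp) and Pmaip1 (0.33, slide block) in tumor-bearing mice and Bcl2l11 (-0.31, mean of probes) in tumor-free mice.

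Leaving out an array turned the sign of the tumor change in CDPs for Bid (-0.03 to 0.12) and Pmaip1 (-0.49 to 0.05), in MDPs for Bcl2l11 probe 1 (-0.13 to 0.18), Mcl1 probe 1 (-0.04 to 0.13) and Mcl1 probe 2 (-0.05 to 0.16), of the difference for Bcl2l1 probe 1 (-0.07 to 0.13), Bbc3 (-0.13 to 0.48), Mcl1 probe 1 (-0.06 to 0.12) and Mcl1 probe 2 (-0.18 to 0.04), and of the tumor-free step for Bcl2l1 probe 1 (-0.05 to 0.15).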
